A study of Mus musculus with 4 samples.

Results

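Besides atrogin1 and MuRF1, a further set of ubiquitin ligases has been tied to the loss of muscle mass, and 10 of them are described here across fed and starved muscle with and without FoxO factors. They are the F-box genes Fbxo30, which encodes MUSA1, Fbxo21, which encodes SMART, and Fbxo31, the HECT ligases Itch and Nedd4, the RING ligases Cblb, Traf6, Trim32 and Mdm2, and the U-box ligase Stub1, which encodes CHIP. They were taken by gene symbol, on probe sets annotated with 1 gene, and all 10 were among the 12565 genes measured above the dim filter. Gene expression was profiled in gastrocnemius of knockout mice lacking FoxO1,3,4 in muscle, starved for 24 h or fed, and of control FoxO1,3,4 f/f mice, likewise starved for 24 h or fed. In the knockout, floxed Foxo1, Foxo3 and Foxo4 alleles were deleted by a Cre recombinase under the MLC1f promoter of fast muscle fibres, so that other cells of the muscle keep these genes. The controls are named FoxO1,3,4 f/f in the design and wild type in the sample labels. All animals were males of a cross of C57BL/6N and FVBN, and mice in the study were 2 to 4 months old. RNA from the 6 gastrocnemius muscles of 3 mice was pooled for each condition and hybridized to 1 Affymetrix mouse array. With 4 arrays and 1 per condition no difference has a replicate check, and no test or p-value was possible. In whole muscle, fewer cells of a type and less RNA per cell cannot be told apart.

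A ubiquitin ligase, or E3, chooses the protein to which ubiquitin is attached, and chains of ubiquitin send many substrates to the proteasome. F-box proteins are the interchangeable substrate receptors of SCF complexes, which also hold Skp1, a cullin and the RING protein Rbx1. HECT ligases pass ubiquitin through a cysteine of their own, whereas RING and U-box ligases bring an E2 enzyme, charged with ubiquitin, next to the substrate. In muscle wasting, FoxO factors switch on some of these genes when insulin and IGF1 signalling through Akt is low.

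The signals are MAS 5.0 values, a brightness on a linear scale, given here as deposited. The median over all probe sets lay between 22.9 and 26.3 on the 4 arrays, and the trimmed mean between 137.7 and 163.0, with both knockout arrays at the lower end. The muscle fibre markers Acta1, Ckm, Myh4, Myh1, Myh2, Mylpf and Tnnt3 were bright on every array, and their summed signal was 100808 in starved and 100135 in fed knockout muscle, against 95981 in starved and 103076 in fed control muscle. Of the deleted genes, Foxo4 was at 34.3 in starved and 31.3 in fed knockout muscle, against 291.3 in starved and 296.9 in fed control muscle, and Foxo1 at 165.5 and 185.2 in starved and fed knockout muscle, against 554.4 and 303.8 in starved and fed control muscle. Foxo3 was not clearly lower in the knockout, at 460.9 in starved and 297.3 in fed knockout muscle, against 477.8 in starved and 250.1 in fed control muscle. Where these probe sets lie relative to the floxed exons was not analysed here, so that a signal that persists checks nothing. All 10 skin and hair genes listed were measured and summed to 1503 in starved and 1016.2 in fed knockout muscle, against 681.7 in starved and 1019.1 in fed control muscle. The hair genes among them stood apart on the starved knockout and fed control arrays, and Krt25 was at 318.5 in starved and 18.2 in fed knockout muscle, against 6.9 in starved and 252.9 in fed control muscle. The epidermal genes Krt5, Krt14, Krt10, Krt1 and Lor were instead each lowest on the fed control array. Krt10 was at 295.3 in starved and 657.6 in fed knockout muscle, against 349.4 in starved and 200.6 in fed control muscle. Lor was at 131.5 and 132.8 in starved and fed knockout muscle, against 177.5 and 12.5 in starved and fed control muscle. The sum mixes these opposite patterns. The neutrophil genes S100a8 and S100a9, 2 of 4 listed for that cell, summed to 90.2 in starved and 176.2 in fed knockout muscle, against 311.1 in starved and 121.9 in fed control muscle. All 4 macrophage genes listed were measured and summed to 1824.6 in starved and 2228.6 in fed knockout muscle, against 2502.3 in starved and 2830.7 in fed control muscle. The part of these other cells in the ligase signals was not tested.

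On starvation, Fbxo30, Fbxo31 and Cblb rose in control muscle, Cblb was the only 1 of the 10 ligases to rise in knockout muscle, and none fell in either genotype. A gene was called at a ratio of 1.5 or its inverse, the threshold of the study, on the probe set brightest on average. In knockout muscle 7.39% of all 12565 genes passed the threshold upward and 9.45% downward, and in control muscle 9.23% did so upward and 14.2% downward. The 2 ligases called up in control muscle but not in the knockout were Fbxo30 and Fbxo31, a pattern found in 6.6% of all genes. The median log2 fold change of the 10 ligases was 0.05 in knockout and 0.18 in control muscle, against -0.06 in knockout and -0.11 in control muscle over all genes. The log2 fold change was lower in knockout than in control muscle for 4 of the 10 on these probe sets. The median difference of the 10, knockout minus control, was 0.03 there, against 0.04 over all genes. With the mean over a gene's probe sets it was -0.51, against 0.04 over all genes. That mean moved the difference from 0.03 to -0.46 for Cblb, and from -1.50 to -0.78 for Fbxo30. This genotype comparison therefore depends on the choice of probe set. Of 29 probe sets for these genes, 24 passed the dim filter, which asked for the median of its array on at least 1 array. Counted by probe set, 22 of the 24 reached that median on all 4 arrays, and of these 2 rose and 0 fell in knockout muscle and 10 rose and 0 fell in control muscle. The share over all probe sets is known for a wider set, the 22180 that reached the median on at least 1 array. Of these 7.61% passed the threshold upward and 11.1% downward in knockout muscle, and 10.1% upward and 14.5% downward in control muscle. The other 2, one of Itch and one of Traf6, reached the median on 1 array alone, the one where each was highest, so that their calls are fixed in part by the filter. Probe sets of 1 gene share its RNA and are not separate genes.

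**Figure D1:**
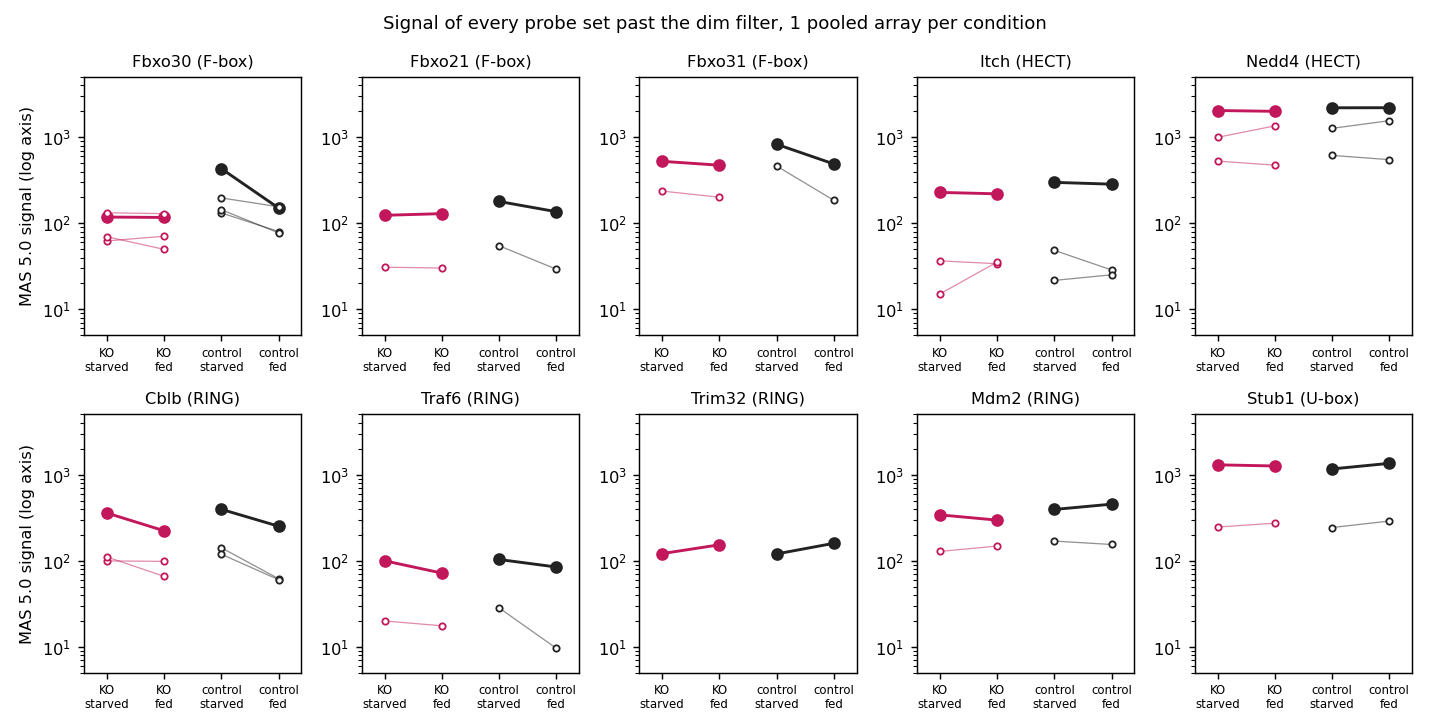
MAS 5.0 signal (log axis) of the 24 probe sets past the dim filter, by ligase, on the starved knockout, fed knockout, starved control and fed control array. Large filled points mark each gene's brightest probe set on average, small open points the others; the starved control array is the high one for Fbxo30 and Fbxo31, and both starved arrays are the high ones for Cblb.

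The F-box genes shared 1 pattern. The study had picked out Fbxo30, Fbxo31 and Fbxo21, along with Itch, from these same arrays. It did so because they rose on fasting in control and not in knockout muscle. The pattern on these arrays is therefore in part how these genes were chosen, and is no independent trait of F-box genes. The study followed them up by quantitative RT-PCR in fasted and denervated muscle. There it reported a blunted or partly blocked rise in the knockout for Fbxo30, Fbxo21 and Fbxo31, but not for Itch. All 8 probe sets of the F-box genes, each past the filter on all 4 arrays, had a lower log2 fold change on starvation in knockout than in control muscle. It ran from -0.18 to 0.49 in knockout muscle, where no probe set passed the threshold, and from 0.34 to 1.52 in control muscle, where 6 did, all upward. Of all 22180 probe sets past the filter on at least 1 array, 7.61% passed upward and 11.1% downward in knockout muscle. In control muscle 10.1% of them passed upward and 14.5% downward. Among the 16 probe sets of the other 7 ligases, 9 had a lower log2 fold change in knockout muscle, among them 1 of Itch and 1 of Nedd4 that lay further below 0 there. Over all genes the difference, knockout minus control, was above 0 for 54.3%. The starved control array, on which the F-box genes were high, also had the highest neutrophil sum of the 4, 311.1, and the part of those cells was not tested.

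Promoter sequence is shown for the F-box genes and Cblb, because these carry the responses above, and for the matches to the FoxO core motif. RefSeq windows of GRCm38.p6, from 250 bases before to 50 bases after a gene's start, were given for 9 of the 10 ligases, 10 windows in all. The letters TAAACA, the core that FoxO factors bind, were searched on both strands and stood in 2 of the 10 windows, those of Mdm2 and Trim32, against 13.4% of 32851 windows of all genes. The longer form GTAAACA, which contains the core, stood in 1 of the 10 windows, that of Mdm2, against 3.65% of all. None of the windows of Fbxo30, Fbxo31, Fbxo21 and Cblb held these letters, which says nothing of sites farther away. By chromatin immunoprecipitation in fasted muscle, the study found FoxO1 and FoxO3 bound at the promoters of Fbxo30 and Fbxo21. It found no significant recruitment at those of Itch and Fbxo31. Where the sites it assayed lie relative to these windows was not analysed here. The GC box GGGCGG, bound by Sp1, was found on either strand in 9 of the 10 windows, against 35.7% of all, and the windows held between 46.7% and 79.7% G and C, against a median of 52.7%. In the next 4 windows capitals mark GC boxes. They lie at chr10:11281337-11281636 on the plus strand (Fbxo30), chr8:121578757-121579056 on the minus strand (Fbxo31), chr5:117976520-117976819 on the plus strand (Fbxo21) and chr16:52031299-52031598 on the plus strand (Cblb).
Fbxo30: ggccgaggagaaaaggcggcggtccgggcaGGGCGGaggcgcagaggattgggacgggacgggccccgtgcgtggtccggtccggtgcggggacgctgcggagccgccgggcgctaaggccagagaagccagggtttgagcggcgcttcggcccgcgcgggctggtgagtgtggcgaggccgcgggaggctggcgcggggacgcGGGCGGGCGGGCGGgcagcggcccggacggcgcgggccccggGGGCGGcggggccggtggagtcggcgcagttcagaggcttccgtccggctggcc
Fbxo31: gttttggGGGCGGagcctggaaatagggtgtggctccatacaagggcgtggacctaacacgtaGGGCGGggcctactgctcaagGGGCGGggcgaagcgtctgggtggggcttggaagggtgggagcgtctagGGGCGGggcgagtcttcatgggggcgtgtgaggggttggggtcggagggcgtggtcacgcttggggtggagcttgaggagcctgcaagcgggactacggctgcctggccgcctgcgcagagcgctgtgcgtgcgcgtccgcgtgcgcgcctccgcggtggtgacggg
Fbxo21: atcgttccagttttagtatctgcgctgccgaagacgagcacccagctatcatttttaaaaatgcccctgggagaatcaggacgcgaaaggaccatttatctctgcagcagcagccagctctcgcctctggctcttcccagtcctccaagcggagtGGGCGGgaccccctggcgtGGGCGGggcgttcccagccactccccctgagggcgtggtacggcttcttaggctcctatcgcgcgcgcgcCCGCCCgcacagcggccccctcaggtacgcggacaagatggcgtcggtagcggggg
Cblb: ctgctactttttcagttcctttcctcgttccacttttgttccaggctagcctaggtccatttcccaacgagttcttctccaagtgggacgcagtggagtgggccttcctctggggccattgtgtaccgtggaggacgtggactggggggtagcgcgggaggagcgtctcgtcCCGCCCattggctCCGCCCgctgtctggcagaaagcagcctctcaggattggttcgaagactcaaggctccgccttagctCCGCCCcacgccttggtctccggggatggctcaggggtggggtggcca

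In the next 2 stretches capitals mark the FoxO core or its reverse complement. The Mdm2 stretch lies at chr10:117710893-117710922 on the minus strand, with the match starting 152 bases before the gene's start, and the Trim32 stretch at chr4:65604800-65604829 on the plus strand, with the match starting 174 bases before it.
Mdm2: ggtttcgagcggTAAACAcaaccgcgcggc
Trim32: attgactaaccaTGTTTAgactctgaaacg

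Neither Mdm2 nor Trim32 passed 1.5-fold on starvation in either genotype.

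Fbxo30, whose promoter window held 5 GC boxes and no FoxO core, encodes MUSA1, an SCF receptor that in muscle is held down by BMP signalling. Its probe set 1436550_at was at 118.2 in starved and 116.9 in fed knockout muscle, against 431.6 in starved and 150.6 in fed control muscle. Only the starved control array was high, and the ratio on starvation was 1.01 in knockout and 2.87 in control muscle. In control muscle 212 genes, Fbxo30 included, had a ratio as large or larger. The difference between the genotypes' log2 fold changes was -1.50, and 266 genes had one as low or lower. For scale, probe sets of the same gene differed in this quantity with an SD of 0.65 among genes of like mean signal over their probe sets. Among genes as bright as probe set 1436550_at alone, the SD was 0.55. This scatter holds no difference between mice. Probe set 1436550_at was the brightest on average only through its starved control value. On every other array 1429441_at was brighter, in fed control muscle at 155.6 against 150.6. The counts of 212 and 266 genes are therefore fixed in part by the choice of probe set.

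The other 3 Fbxo30 probe sets gave smaller ratios in control muscle. The one at 132.5 in starved and 129.6 in fed knockout muscle, against 197.3 in starved and 155.6 in fed control muscle, had ratios of 1.02 in knockout and 1.27 in control muscle, and is not called. The third was at 62.4 in starved and 70.7 in fed knockout muscle, against 132 in starved and 80.3 in fed control muscle, with ratios of 0.883 and 1.64. The fourth was at 69.8 in starved and 49.8 in fed knockout muscle, against 143.9 in starved and 77.4 in fed control muscle, and had the highest ratio of the Fbxo30 probe sets in knockout muscle, 1.40, beside 1.86 in control muscle. The starved control array was the highest of the 4 on every Fbxo30 probe set, while the ratio in control muscle ran from 1.27 to 2.87.

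Fbxo31 encodes the F-box protein that recognises cyclin D1. It was at 525.2 in starved and 473.5 in fed knockout muscle, against 828.5 in starved and 489.3 in fed control muscle on probe set 1428926_at. The fed arrays of both genotypes lay close together, with a knockout over control ratio of 0.968, and the starved control array was again the high one. The ratio on starvation was 1.11 in knockout and 1.69 in control muscle. A second probe set was at 236.8 in starved and 200.8 in fed knockout muscle, against 462.5 in starved and 184.9 in fed control muscle, which are ratios of 1.18 and 2.50. The difference of the log2 fold changes, knockout minus control, was -0.61 on the brighter and -1.08 on the dimmer probe set, where the scatter between probe sets of one gene had an SD of 0.46 for genes as bright as the first.

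Fbxo21 encodes SMART. Probe set 1452828_at was at 123.9 in starved and 129.5 in fed knockout muscle, against 179.4 in starved and 136.5 in fed control muscle. The ratios of 0.957 in knockout and 1.31 in control muscle are both within the 1.5-fold threshold, and the starved control array was the highest. Its dimmer probe set was at 30.9 in starved and 30.2 in fed knockout muscle, against 54.9 in starved and 29.3 in fed control muscle, and passed the threshold in control muscle only, at 1.87 against 1.02 in knockout muscle. The log2 difference between genotypes was -0.46 and -0.87 on these probe sets, where the SD between probe sets of a gene was 0.65 for genes of like signal to the first.

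The HECT ligases did not reach the threshold on their brightest probe sets. Itch, which acts on Jun proteins and p63, was at 228.7 in starved and 220.1 in fed knockout muscle, against 299.1 in starved and 285.1 in fed control muscle. Starved and fed arrays lay close together in both genotypes, with ratios of 1.04 and 1.05, while both knockout arrays were below both control arrays. Of its dimmer probe sets, one was at 36.6 in starved and 33.9 in fed knockout muscle, against 48.5 in starved and 28.7 in fed control muscle, and the other at 15.1 in starved and 35.5 in fed knockout muscle, against 21.7 in starved and 25.2 in fed control muscle. In control muscle the first passed the threshold at 1.69 and the second did not, at 0.861, and in knockout muscle the second had a ratio of 0.425, on a probe set that passed the filter through the fed knockout array alone. A further Itch probe set never reached its array's median and was between 1.2 and 10.

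Nedd4, the founding member of its family, which acts on membrane proteins and signalling receptors, was bright and flat. It was at 2046.1 in starved and 2002.2 in fed knockout muscle, against 2201.3 in starved and 2204.9 in fed control muscle, ratios of 1.02 and 0.998. Its other 2 probe sets had ratios of 0.736 and 1.11 in knockout muscle and 0.815 and 1.12 in control muscle. On all 3 the difference between the genotypes' log2 fold changes was small, from -0.15 to 0.03.

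Cblb was the ligase that rose in both genotypes. It encodes Cbl-b, which targets the insulin receptor substrate IRS1 in unloaded muscle. Probe set 1455082_at was at 357.6 in starved and 222.4 in fed knockout muscle, against 395.0 in starved and 251.5 in fed control muscle. Both starved arrays were above both fed arrays, and the ratios of 1.61 in knockout and 1.57 in control muscle differed by 0.03 on the log2 scale. A second probe set repeated this, at 110.4 in starved and 65.7 in fed knockout muscle, against 118.8 in starved and 60.1 in fed control muscle. The third did not, at 99.4 in starved and 98.1 in fed knockout muscle, against 141.1 in starved and 61.7 in fed control muscle, with ratios of 1.01 and 2.29. With the mean over the 3 probe sets the log2 fold change was 0.48 in knockout muscle, under the threshold, and 0.94 in control muscle.

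Traf6 builds ubiquitin chains that serve as signalling platforms and relays signals from cytokine receptors. Probe set 1435350_at was at 99.6 in starved and 71.7 in fed knockout muscle, against 103.2 in starved and 84.4 in fed control muscle. Starved arrays were above fed arrays in both genotypes, with ratios of 1.39 and 1.22, both under the threshold. A dim probe set at 19.9 in starved and 17.5 in fed knockout muscle, against 28.3 in starved and 9.6 in fed control muscle, had a ratio of 1.14 in knockout and 2.95 in control muscle, and passed the filter through the starved control array alone, where it was highest. The remaining 3 of its 5 probe sets stayed under the median of every array.

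Trim32, a ligase for actin, desmin and other sarcomeric proteins that is mutated in a limb-girdle muscular dystrophy, has 1 probe set. It was at 120.9 in starved and 152.9 in fed knockout muscle, against 119.8 in starved and 159.1 in fed control muscle. Both starved arrays were below both fed arrays, by ratios of 0.791 and 0.753 that are within the threshold, and the genotypes lay close together.

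Mdm2, the ligase of p53, was at 340.5 in starved and 295.9 in fed knockout muscle, against 393.7 in starved and 453.5 in fed control muscle. The ratio on starvation was 1.15 in knockout and 0.868 in control muscle, and the log2 difference of 0.41 was the highest of the 10 ligases. Its sign was opposite on the second probe set, at 128.0 in starved and 147.8 in fed knockout muscle, against 168.9 in starved and 154.1 in fed control muscle, where it was -0.34.

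Stub1 encodes CHIP, a U-box ligase that ubiquitinates clients of the chaperones Hsp70 and Hsp90. It was at 1299.0 in starved and 1260.3 in fed knockout muscle, against 1163.9 in starved and 1351.8 in fed control muscle, and its ratios of 1.03 and 0.861 are within the threshold. The second probe set had ratios of 0.902 in knockout and 0.840 in control muscle.

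**Figure D2:**
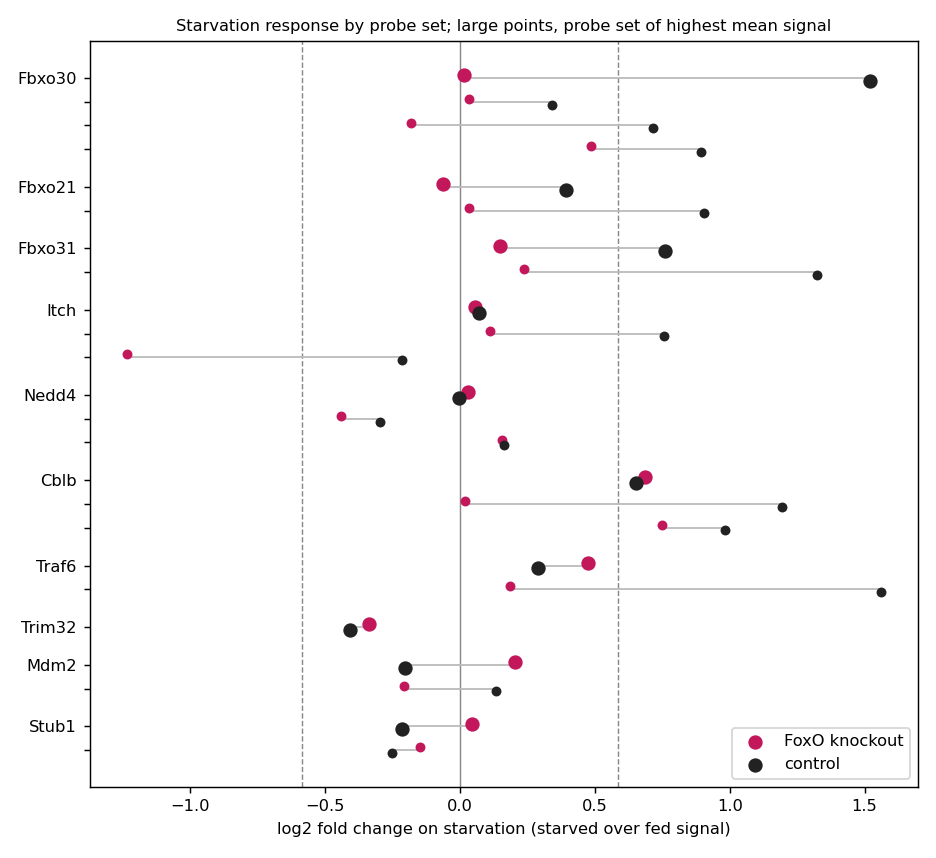
Starvation response as the log2 ratio of starved over fed signal, for each of the 24 probe sets past the dim filter, with red points for knockout and black points for control muscle. Dashed lines mark 1.5-fold up and down, and large points mark each gene's brightest probe set on average; the red point lies left of the black one on all 8 probe sets of Fbxo30, Fbxo21 and Fbxo31.

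Set against control muscle on the brightest probe sets, Fbxo30 and Fbxo31 were lower in starved and Mdm2 in fed knockout muscle. None of the 10 was higher in either state on those probe sets. Of all genes, 14.6% were lower and 6.39% higher in starved knockout muscle, and 11.3% were lower and 3.38% higher in fed knockout muscle. The arrays differed in overall level, and the median log2 ratio of knockout over control signal over all genes was -0.16 starved and -0.20 fed. Fbxo30 was at 0.274 of the control signal in starved and 0.776 in fed muscle, and its starved log2 ratio of -1.87 became -1.69 once every array had been brought to 1 common median. Fbxo31 was at 0.634 starved and 0.968 fed, and its starved log2 ratio of -0.66 became -0.47 on the common scale, within the threshold. Its second probe set was lower, at 0.512 starved and 1.09 fed, with a starved log2 ratio of -0.97 as deposited. Mdm2 was at 0.865 starved and 0.652 fed, and its fed log2 ratio of -0.62 became -0.47 on the common scale, also within it. On that scale 8.32% of all genes were lower and 10.1% higher in starved knockout muscle, and 7.19% were lower and 4.78% higher in fed knockout muscle. Fbxo21 was at 0.691 starved and 0.949 fed. Its dimmer probe set was at 0.563 starved and 1.03 fed, with a starved log2 ratio of -0.83 as deposited. On their brightest probe sets, the fed log2 ratios of Fbxo21 and Fbxo31, -0.08 and -0.05, became 0.07 and 0.10 on the common scale. Their fed values therefore have no settled direction. Itch was at 0.765 starved and 0.772 fed on its brightest probe set, the only ligase besides Fbxo30 and Mdm2 under 0.8 of the fed control signal. Its log2 ratios of -0.39 starved and -0.37 fed became -0.20 and -0.23 on the common scale. Its dimmer probe sets past the filter were at 0.755 and 0.696 starved but at 1.18 and 1.41 fed. The one at 1.41 passed the filter through the fed knockout array alone. The fed value of Itch therefore has no settled direction. Other ligases also differed by probe set in fed muscle. The second Mdm2 probe set was at 0.959 of the fed control signal, within the threshold. A Cblb probe set was at 1.59 and a dim one of Traf6 at 1.82, whereas the fourth of Fbxo30 was at 0.643. The Traf6 one passed the filter through the starved control array alone.

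**Figure D3:**
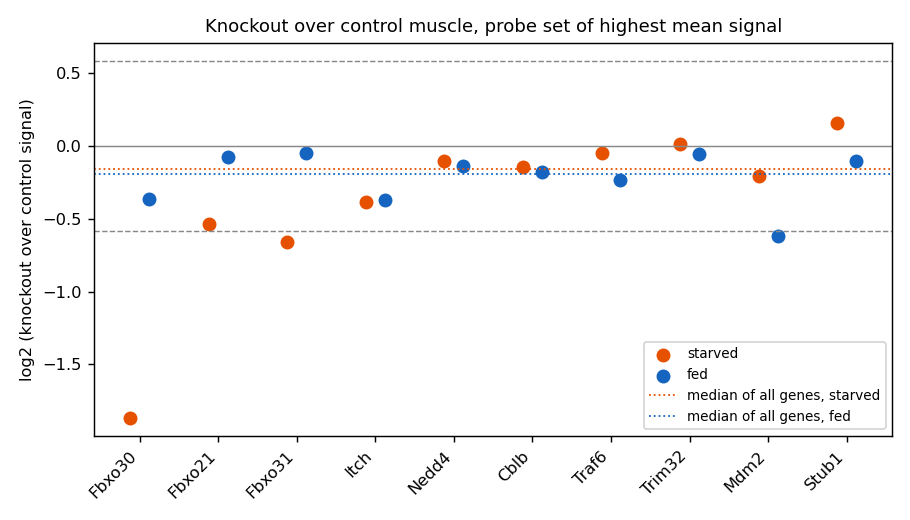
Log2 ratio of knockout over control signal for each ligase on its brightest probe set on average, in starved (orange) and fed (blue) muscle, from 4 pooled arrays. Dashed lines stand at 1.5-fold and dotted lines at the median of all genes (-0.16 starved, -0.20 fed); Fbxo30 in starved muscle stands lowest at -1.87.

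Partner genes of these ligases were listed by role, and 96 of them passed the filter. On starvation 7 rose and 5 fell in knockout muscle, which are 7.29% and 5.21%, and 15 rose and 7 fell in control muscle, which are 15.6% and 7.29%. These can be set against 7.39% up and 9.45% down in knockout and 9.23% up and 14.2% down in control muscle over all genes.

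Of 9 genes of the SCF core and its activation by Nedd8, none rose, and the core genes Skp1 and Cul1 were within the threshold in both genotypes. Rbx1, the RING subunit, was dim, under the median of its array in starved knockout muscle, and fell in knockout muscle, at 11.7 in starved and 36.5 in fed knockout muscle, against 44.3 in starved and 36.5 in fed control muscle. Dcun1d1, which helps attach Nedd8 to cullins, fell in control muscle, with ratios of 0.809 in knockout and 0.535 in control muscle. Among 12 substrates and BMP genes tied to the F-box ligases, 1 rose and 2 fell in control muscle and none moved past the threshold in knockout muscle. Ccnd1, the cyclin D1 gene whose product Fbxo31 recognises, was at 130.5 in starved and 162.9 in fed knockout muscle, against 140.8 in starved and 317.6 in fed control muscle. The fed control array was the high one for Ccnd1. The BMP target Id1 had ratios of 1.11 in knockout and 1.61 in control muscle, and Id2 had 0.776 and 0.588 in the same genotypes.

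None of the 6 other NEDD4 family genes measured passed the threshold on starvation in either genotype. Of 8 adaptors and substrates of this family, 2 rose in knockout and 4 in control muscle. Junb, a substrate of Itch, was at 81.6 in starved and 73.4 in fed knockout muscle, against 188.3 in starved and 94.1 in fed control muscle, and Jun had ratios of 1.25 in knockout and 1.88 in control muscle. Txnip, an inhibitor of glucose uptake, had ratios of 1.56 in knockout and 1.57 in control muscle, close to those of Cblb. Trp63, a gene of basal skin cells as well, had ratios of 1.96 and 2.61 in the same genotypes, from signals between 34.8 and 90.9, and the basal skin keratin Krt5 was at 91.1 in starved and 62.7 in fed knockout muscle, against 56.1 in starved and 41.1 in fed control muscle. The part of skin RNA in the Trp63 values was not tested.

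Of 8 genes of the CBL family and the insulin pathway, 1 rose and 1 fell in knockout muscle, and 2 rose in control muscle. Irs1, the substrate of Cbl-b, was at 490.4 in starved and 834.4 in fed knockout muscle, against 1492.1 in starved and 1323.4 in fed control muscle. Irs1 therefore fell in knockout muscle, with a ratio of 0.588, and had 1.13 in control muscle. Irs2 had ratios of 1.13 and 2.29, and the IGF1 receptor gene Igf1r 1.14 and 1.73, in knockout and control muscle. Pik3r1, a regulatory subunit of PI3 kinase, went the other way, with 1.85 and 1.05 in the same genotypes.

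Of 13 genes of the TRAF list, 0 rose and 3 fell in knockout muscle, and 1 rose and 4 fell in control muscle, with median log2 fold changes of -0.17 in knockout and -0.38 in control muscle. Falls also outnumbered rises over all genes, with 9.45% down and 7.39% up in knockout and 14.2% down and 9.23% up in control muscle. Tnfaip3, which removes ubiquitin chains made by TRAF6, had a ratio of 1.23 in knockout and 0.548 in control muscle. Irak1, a kinase upstream of TRAF6, had 0.625 and 1.33, Traf4 0.888 and 0.409, and Traf5 0.514 and 0.766 in the same genotypes. Traf4 was dim, between 11 and 26.9, and passed the filter through the fed control array alone, where it was highest, so that its fall is fixed in part by the filter. The 1 gene that rose in control muscle was Sqstm1, which encodes the autophagy receptor p62, with ratios of 1.31 in knockout and 1.67 in control muscle. No relative or substrate of TRIM32 among 8 measured passed the threshold, and neither did any of 10 E2 enzymes.

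Of 12 chaperones and U-box ligases around CHIP, 1 rose in knockout and 4 in control muscle, and none fell. Ube4a, a U-box ligase that extends ubiquitin chains, was at 125.5 in starved and 92.9 in fed knockout muscle, against 305.7 in starved and 124.1 in fed control muscle, ratios of 1.35 and 2.46. The starved control array was the high one, as for Fbxo30. Hspa1a and Hspa1b, nearly identical Hsp70 genes whose probe sets may read both, had ratios of 1.38 and 1.30 in knockout and 1.75 and 1.86 in control muscle. Flnc, an actin crosslinker cleared through CHIP when damaged, rose in both, with ratios of 1.77 in knockout and 2.21 in control muscle.

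Among 10 MDM2 partners and p53 targets, the same 3 genes rose in both genotypes. Cdkn1a, a cell cycle inhibitor, was at 2347.1 in starved and 376.8 in fed knockout muscle, against 1218.2 in starved and 264.4 in fed control muscle, ratios of 6.23 and 4.61. Eda2r, a receptor of the TNF family, had ratios of 1.94 in knockout and 3.79 in control muscle, and Trp53inp1 1.87 and 2.51. Mdm2, itself a p53 target, did not pass the threshold on either probe set past the filter.

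**Figure D4:**
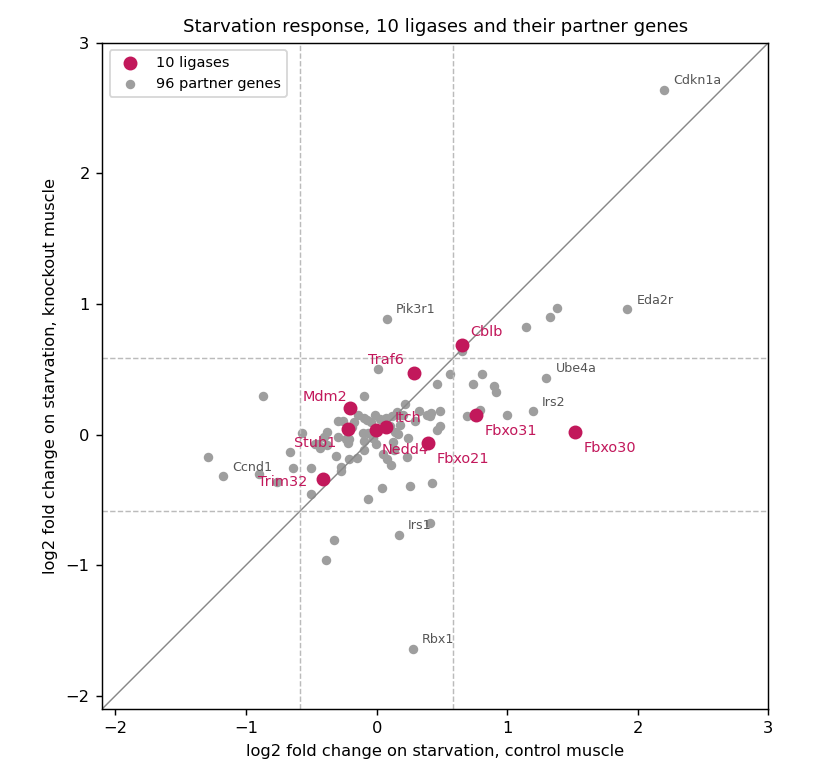
Log2 fold change on starvation in control muscle (horizontal) and knockout muscle (vertical) for the 10 ligases (red) and 96 partner genes (grey), from 4 pooled arrays. Dashed lines stand at 1.5-fold and the diagonal marks equal responses; Cblb lies near the diagonal at 0.69 in knockout and 0.65 in control muscle, and Fbxo30 far below it at 0.02 in knockout and 1.52 in control muscle.

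The best known ligases of this tissue served as a measure. Fbxo32, which encodes atrogin1, had ratios of 2.27 in knockout and 4.56 in control muscle, and Trim63, which encodes MuRF1, had 1.36 and 2.43, beside 1.01 and 2.87 for Fbxo30 in the same genotypes. Genes with the nearest profile to each induced ligase were taken among 7426 genes by the distance between log2 signals on the 4 arrays, centred on each gene's mean, a description over 4 points. For Fbxo30 they were Zwint, Ampd3, which encodes an AMP deaminase, and Lrba, at distances of 0.15, 0.15 and 0.16. Ampd3 was at 222.8 in starved and 246.8 in fed knockout muscle, against 931.2 in starved and 302.3 in fed control muscle. For Fbxo31 they were Slc25a28, a mitochondrial iron carrier, Zfp346 and Srfbp1, at 0.05, 0.07 and 0.07. For Cblb they were Txnip, Zxdc and Nceh1, at 0.03, 0.05 and 0.05.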

How the data were processed

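Total RNA of gastrocnemius was pooled by condition and hybridized to Affymetrix mouse arrays. The authors summarized each probe set into a MAS 5.0 signal intensity on a linear scale; Affymetrix Expression Console is a further tool listed in the submitters' processing notes. The deposited intensities were used without further scaling, and no source used here states their scaling target or gives detection calls. GEO's platform annotation gave 1 gene for 34945 of 45037 probe sets (Affymetrix controls aside) and several for 932, and 9160 are not listed in it; symbols of 34741 were updated by gene identifier (RefSeq, GRCm38.p6). Probe sets of several genes were left unnamed. The dim filter kept probe sets that reached the 50th percentile of signals on any of the 4 arrays, which left 12565 genes, and each gene was read on the probe set brightest on average. Ratios of signals were called at 1.5, with signals of 0 set to 0.1 before logarithms. The number of arrays limits precision. Calls were tested on simulated data, which checks the calling steps only, because the simulated signals hold no measured difference between mice. Python 3.11.15, numpy 2.4.6, pandas 2.3.3 and matplotlib 3.10.9 were used.

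Named genes were all members with every probe set, the partner genes called on starvation (at most 4 in a list, by size of the genotype difference), the 3 nearest profiles of each induced member, and Fbxo32, Trim63 and the FoxO genes. Chosen after their values were seen, Sqstm1, Skp1, Cul1 and the epidermal genes Krt5, Krt14, Krt10, Krt1 and Lor are named besides. Members and lists were chosen with earlier results of these data known. Alternatives were the scaling, the dim filter, an added offset, the choice of probe set and the fold threshold.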

Additional observations from a re-analysis of the deposited data

How the results depend on the processing

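None of the called log2 ratios of the ligases changed sign under the alternatives run. With the mean over a gene's probe sets, 5 ligases rose in control muscle (Traf6 and Fbxo21 in addition to Fbxo30, Fbxo31 and Cblb; Traf6 through a dim probe set that passed the filter only on the starved control array, where it was highest, beside a ratio of 1.22 on its brightest), 0 rose in knockout muscle, 5 rose in control and stayed under the threshold in knockout muscle, and 0 were lower in fed knockout muscle. The shares of all genes for these 4 counts, in the same order, were 9.30%, 7.66%, 6.72% and 11.6%. With the probe set brightest on the fed control array, 1 ligase rose in control and stayed under the threshold in knockout muscle, and 1 was lower in starved knockout muscle, with Fbxo30 then read on another probe set (log2 fold change of 0.34 in control muscle). Of all genes, 6.24% and 14.8% did so. At 2-fold, 1 ligase rose in control muscle, 0 rose in knockout muscle, 1 rose in control and stayed under it in knockout muscle, 1 was lower in starved and 0 were lower in fed knockout muscle. In the same order, the shares of all genes were 3.73%, 3.30%, 2.87%, 4.53% and 3.56%. After scaling every array to 1 median, or after quantile normalization, 1 ligase was lower in starved and 0 in fed knockout muscle. Of all genes, 8.32% were lower in starved and 7.19% in fed knockout muscle after median scaling. After quantile normalization these shares were 8.28% and 6.35%. With an offset of 32, 0 ligases were lower in fed knockout muscle, against 3.74% of all genes. The other 56 of 72 counts stayed within 1.5 times, those with no filter or a filter at the 75th percentile included. Many of these were 0 and stayed at 0, which overstates their stability. They are the ligases that fell in either genotype and those higher in starved or fed knockout muscle. Of all genes, 16.5% rose in control muscle with no filter and 6.78% with the filter at the 75th percentile. No paired analysis was possible because each condition has 1 array, and for the same reason no array could be left out. Probe sets of a gene scattered with an SD of 0.96 for the genotype difference in the dimmest of 4 equal groups of genes by signal and 0.46 in the brightest, on the log2 scale.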
